A study of Homo sapiens with 4 samples.

Results

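Chromosome 19 holds many clusters of KRAB zinc-finger genes, and the H3K27ac peaks over 2 of these regions were examined in REH and 697 cells. The clusters were taken by position on hg19. The first window, of 4.5 Mb, ran from 19800000 to 24300000 on the short arm, beside the centromere. The second, of 7.1 Mb, ran from 52000000 to 59100000 at the end of the long arm. Every peak with 1 bp or more inside a window was taken, which gave 287 peaks in REH, of 44626 in its whole list, and 414 in 697, of 74504. None of them crossed an edge of a window. The rule used position only.

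REH and 697 are B-cell precursor acute lymphoblastic leukemia cell lines, and each was profiled in 1 ChIP-seq library with an antibody against acetylated lysine 27 of histone H3, with input DNA of the same line as its control. REH carries the ETV6/RUNX1 fusion and 697 does not. Both lines were grown untreated, and each stands for 1 line only, so the fusion cannot be told apart from any other difference between them. After removal of duplicate tags, 65241657 REH and 68911420 697 ChIP tags remained. There were no replicate libraries, so no p-value was computed. The intervals given are 95% intervals that cover counting error alone and treat peaks as independent, which neighbouring peaks are not.

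KRAB zinc-finger proteins bind DNA through arrays of zinc fingers, many of them at transposable elements, and recruit TRIM28, a corepressor that brings in enzymes for the repressive mark H3K9me3. The family grew by repeated tandem duplication, which left its genes side by side in clusters, and several clusters are themselves known to be packed in H3K9me3 over the gene bodies. H3K27ac, in contrast, marks active promoters and enhancers. H3K9me3 was not examined here, so whether the peaks below lie within repressive chromatin was not tested. ZNF91 and ZNF93 are known as repressors of SVA and LINE-1 retrotransposons, and ZNF274 as a factor that binds the 3′ ends of other zinc-finger genes.

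In the RefSeq annotation of GRCh38.p14, which was used for names and gene order only, 265 of the 1451 protein-coding genes of chromosome 19 carried a symbol beginning with ZNF, ZFP, ZSCAN or ZIM, or were PEG3, which is 18.3%. These are 47.2% of the 562 such genes on all chromosomes. The longest stretch in which only such genes followed one another held 27 genes, from ZNF737 to ZNF681, and included ZNF43, ZNF208 and ZNF91. The next held 24 genes, from ZNF565 to ZNF793, and another of 24 genes ran from ZNF627 to ZNF791. A run of 16 genes from ZNF530 to ZNF256 came after a run of 20. As background, chromosome 19 has more zinc-finger clusters than the windows cover, and the rest of the chromosome is not free of such genes. The runs above were not placed on hg19, so which of them lie outside the windows was not examined. No annotation on hg19 was used here, so none of the peaks below is assigned to a gene.

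Acetylated regions were sparse in the first window and frequent in the second. The first window held 51 REH peaks, or 11.3 per Mb (95% Poisson interval 8.44 to 14.9), and 91 697 peaks, or 20.2 per Mb (16.3 to 24.8). In the second window there were 236 REH peaks, or 33.2 per Mb (29.1 to 37.8), and 323 697 peaks, or 45.5 per Mb (40.7 to 50.7). The density of the first window was 0.341 times that of the second in REH (0.247 to 0.463) and 0.445 times in 697 (0.348 to 0.563). The windows therefore differed from each other by more than counting error in both cell lines.

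The rest of chromosome 19, of 47.5 Mb, had 1900 REH peaks, or 40 per Mb (38.2 to 41.8), and 2713 697 peaks, or 57.1 per Mb (55.0 to 59.3). Relative to it, the density of the first window was 0.283 in REH (95% interval 0.210 to 0.374) and 0.354 in 697 (0.284 to 0.436). The same ratio for the second window was 0.831 in REH (0.723 to 0.952) and 0.797 in 697 (0.708 to 0.894). For both windows combined it was 0.619 in REH and 0.625 in 697. For the second window, much of the contrast came from 1 part of the rest. Before the first window the density was 56.6 per Mb in REH and 76.1 in 697, and between the windows it was 28.1 and 43.6. Against the part between the windows, which spans the centromere, the second window had a ratio of 1.18 in REH (1.02 to 1.37) and 1.04 in 697 (0.921 to 1.18), but that part includes 3.97 Mb at the centromere without a peak of either line. Without this stretch the ratio was 1.01 in REH (0.872 to 1.17) and 0.894 in 697 (0.789 to 1.01), intervals that both hold 1. The first window was low against either part. Its ratio was 0.200 in REH and 0.266 in 697 against the part before it. Against the part between the windows it was 0.403 in REH (0.297 to 0.535) and 0.464 in 697 (0.371 to 0.575), with the empty stretch included.

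Chromosome 19 as a whole is rich in H3K27ac peaks, and this sets the scale for the windows. Over all chromosomes there were 16.5 peaks per Mb in REH and 27.6 in 697, relative to the effective genome size of 2700 Mb named in the file headers. The second window exceeded the remaining genome 2.02 times in REH (1.77 to 2.29) and 1.65 times in 697 (1.48 to 1.84). The first window reached 0.685 times that density in REH (0.510 to 0.901) and 0.733 times in 697 (0.590 to 0.899). By these ratios only the first window was below the genome as a whole. The windows were divided by their full length and the genome by its effective size, so the denominators differ in kind. How much of each window tags can be mapped to was not examined.

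**Figure D1:**
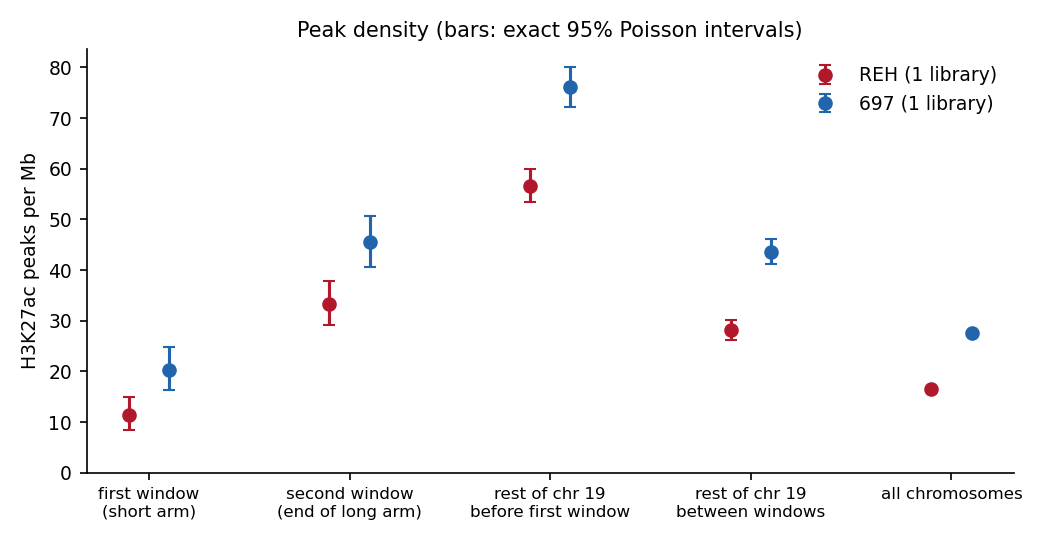
H3K27ac peaks per Mb (vertical axis) in REH (red) and 697 (blue), 1 library each, in both zinc-finger windows, in the parts of chromosome 19 outside them and over all chromosomes; bars are exact 95% Poisson intervals. The first window sits at 11.3 per Mb in REH and 20.2 in 697, below every other region shown, and the second window at 33.2 and 45.5. All chromosomes were divided by the effective genome size, the other regions by their full length.

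The 697 list held more peaks than the REH list in both windows and outside them, though not in every bin. There were 1.44 times as many 697 as REH peaks in the windows (95% interval 1.24 to 1.68), 1.43 times in the rest of chromosome 19 (1.35 to 1.51) and 1.67 times over all chromosomes. The ratio was 1.78 in the first window (1.25 to 2.57) and 1.37 in the second (1.15 to 1.63), intervals that overlap.

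By bases, REH peaks covered 1.43% of the first window and 697 peaks 2.18%. The second window was covered to 4.68% in REH and 5.85% in 697, and the rest of the chromosome to 6.64% and 7.63%. Bases under peaks of both lines made up 34.2% of the bases under a peak of either line in the first window, 40.5% in the second and 38.1% in the rest. Of the bases in REH peaks, 64.8% in the windows and 59.3% in the rest also lay under a 697 peak. In the other direction it was 50% of the 697 bases in the windows and 51.5% in the rest.

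Long stretches of the first window had no peak at all. In REH the longest ran over 782268 bp, from 22034868 to 22817135, and in 697 over 581032 bp, from 22236118 to 22817149. They lie over each other, and 581018 bp were without a peak in either line. Stretches of at least 100 kb without a peak made up 61.1% of the first window in REH and 56.2% in 697. In the second window the shares were 30.8% and 25.5%, before the first window 21.9% and 15.8%, and between the windows, where the centromere lies, 54.8% and 45.9%. The median distance from one peak to the next was 55.5 kb in REH and 20.5 kb in 697 in the first window, and 16.3 and 10.6 kb in the second.

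The longest stretches of the second window did not coincide. In REH it was 595497 bp, from 57107088 to 57702584, and this stretch held 14 697 peaks, among them the longest 697 peak of either window. In 697 it was 402748 bp, from 56189522 to 56592269, of which 401162 bp were empty in REH as well. A REH peak of 6040 bp reached into the 697 stretch at its start only, so emptiness was largely shared there and not in the REH stretch.

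Counts in bins of 500000 bp showed how unevenly the peaks were spread. Across the 9 bins of the first window, REH had 11, 2, 5, 7, 3, 0, 3, 9 and 11 peaks from the centromere-distal to the centromere-proximal end, and 697 had 22, 18, 9, 10, 9, 0, 3, 11 and 9. The middle of this cluster was thus the poorest part in both lines. The second bin, from 20.3 to 20.8 Mb, stood apart, with 2 peaks in REH and 18 in 697, of which 16 were not shared. Towards the centromere the excess of 697 was gone, with 11 REH and 9 697 peaks in the last bin.

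In the second window, the bin from 54.5 to 55.0 Mb was the richest in both lines, with 37 REH and 49 697 peaks that covered 13.4% and 16.2% of its bases. The next bin, from 55.0 to 55.5 Mb, went the other way. It had 19 peaks in REH and 7 in 697, and 14 of the 19 REH peaks were not shared. Of the 15 bins of this window, 13 had more peaks in 697 and 2 had more in REH, the other being the shorter bin at the chromosome end, with 10 and 9. The bin from 57.0 to 57.5 Mb had 3 REH and 15 697 peaks. As background, this end of the long arm also holds the leukocyte receptor genes and the NLRP genes beside the zinc-finger genes, so not every peak of the second window lies in zinc-finger DNA. How many peaks lie outside it was not examined, so the values of this window describe the region and not zinc-finger genes alone. Without its richest bin, both windows together held 22.5 REH and 32.9 697 peaks per Mb, beside 24.7 and 35.7 with that bin.

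**Figure D2:**
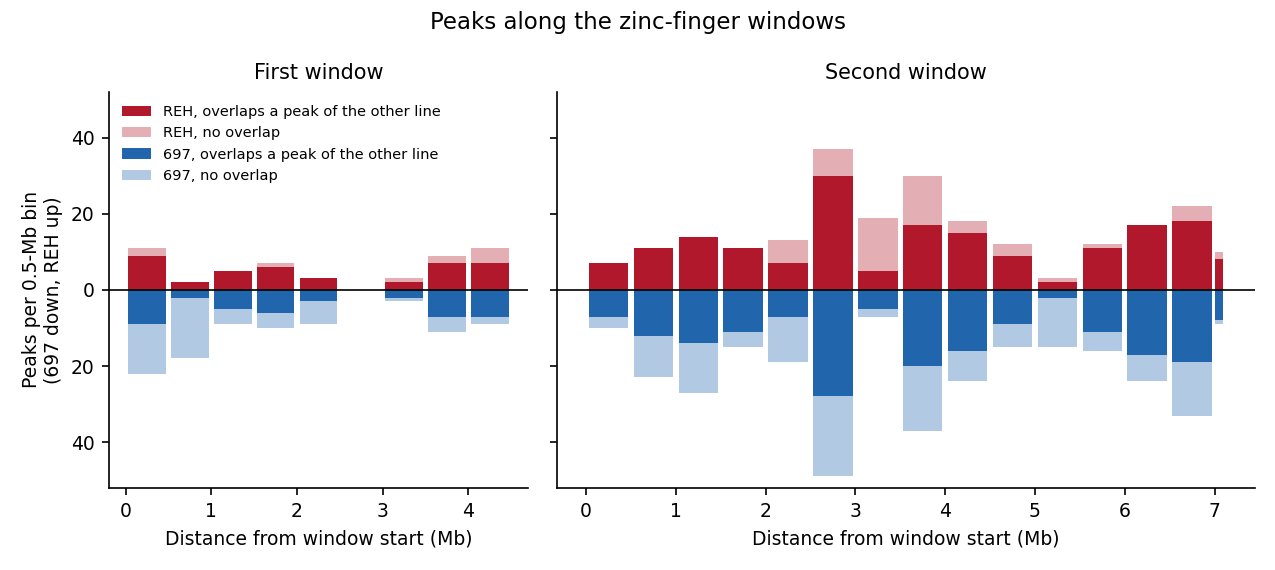
Peaks per bin of 0.5 Mb by distance from the start of each window in Mb, with REH above and 697 below the line; dark bars are peaks that overlap a peak of the other line by at least 1 bp, pale bars those that do not, and the last bin of the second window is only 0.1 Mb wide. From 0 to 2 Mb of the second window every REH bar is dark, and at 3 to 3.5 Mb 14 of 19 REH peaks are pale.

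In the lists as deposited, most REH peaks of the windows were also present in 697. A peak was scored as shared when it had 1 bp or more in common with a peak of the other line. This held for 223 of the 287 REH peaks, or 77.7% (95% Wilson interval 72.5 to 82.1), beside 64.1% of all REH peaks in the genome. Of the 414 697 peaks, 227 overlapped a REH peak, or 54.8% (50 to 59.6), beside 38.9% of all 697 peaks. In the rest of chromosome 19 the shares were 70.8% (68.8 to 72.8) and 51.5% (49.6 to 53.4). The difference from the rest was 6.86 percentage points for REH peaks (1.32 to 11.8) and 3.34 points for 697 peaks (-1.83 to 8.43). The first interval leaves out 0 and the second does not. The comparator mattered, since against the part between the windows alone the difference was 5.43 points for REH (-0.558 to 10.9) and 6.53 points for 697 (0.948 to 12.0). Keeping only peaks with a deposited −log10 p of at least 10 left 91 REH peaks in the windows. Of these, 4.40% overlapped a 697 peak kept by the same limit. The doubt about that column is given with the pileup. Merged over both lists, the windows held 471 separate acetylated regions, of which 220 had a peak in both lines, 64 in REH only and 187 in 697 only.

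Within each window the shares had wide intervals. In REH, 41 of 51 peaks were shared in the first window, or 80.4% (67.5 to 89.0), and 182 of 236 in the second, or 77.1% (71.4 to 82.0). In 697, 41 of 91 were shared in the first window, or 45.1% (35.2 to 55.3), and 186 of 323 in the second, or 57.6% (52.1 to 62.9).

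A long peak meets a peak of the other line more readily than a short one, so lengths were compared first. The median REH peak was 1139 bp in the windows (95% binomial interval 1027 to 1238) and 1213 bp in the rest of chromosome 19 (1158 to 1247). For 697 the medians were 946 bp (855 to 1038) and 898 bp (855 to 928). Medians therefore hardly differed, while the spread was narrower in the windows. From the lower to the upper quartile the REH lengths ran from 703 to 1642 bp in the windows and from 663 to 2062 bp in the rest.

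REH peaks of 2000 bp or more were less frequent in the windows, while in 697 the intervals overlapped. REH peaks of at least 2000 bp made up 18.1% (14.1 to 23.0) of those in the windows and 26.1% (24.2 to 28.1) in the rest, and 697 peaks 16.2% (12.9 to 20) and 19.1% (17.6 to 20.6). In 697 the second window had 18.9% of such peaks and the first 6.59%. Between the windows alone they made up 23.0% of the REH (20.2 to 26.1) and 18.3% of the 697 peaks, so against that part the REH intervals overlapped too. The percent of peaks of 1000 to under 2000 bp was 40.1% against 33.2% in REH and 30.9% against 26.0% in 697. The longest REH peak was 3566 bp in the first window and 9819 bp in the second, against 41329 bp in the rest of the chromosome. In 697 the longest were 6860, 10707 and 26093 bp.

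**Figure D3:**
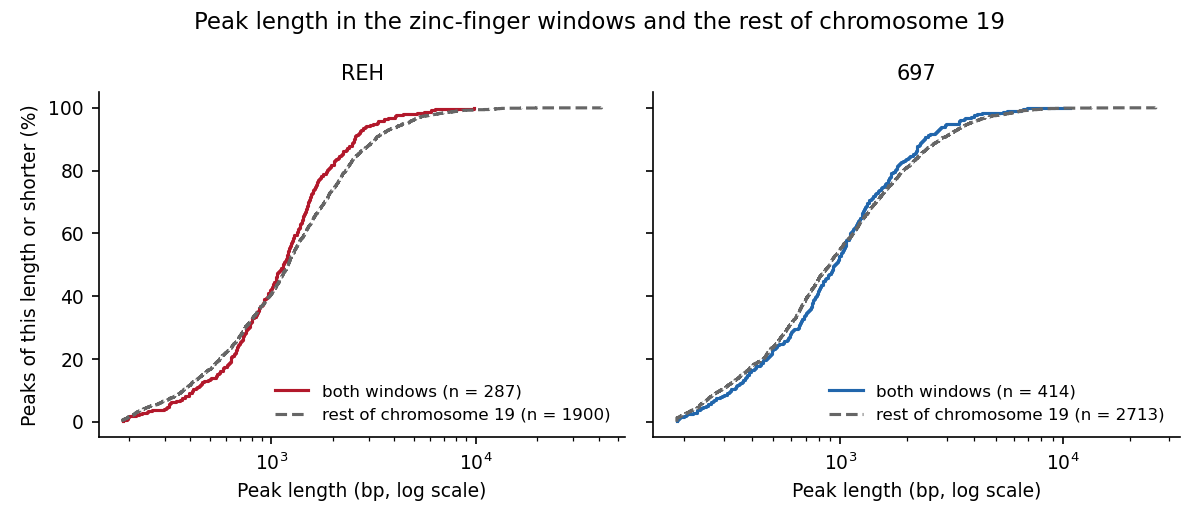
Percent of peaks at or below a given length (bp, log axis) for REH and 697, with the 287 REH and 414 697 peaks of the windows as solid lines and the 1900 and 2713 peaks of the rest of chromosome 19 as dashed lines. Above about 1000 bp the solid lines rise faster, since 18.1% of the REH and 16.2% of the 697 peaks in the windows reach 2000 bp against 26.1% and 19.1% in the rest.

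By the 1-bp rule and against the whole rest, the interval of the difference in sharing left out 0 in 1 length class, which was singled out after its values were seen. Of the REH peaks of 500 to under 1000 bp, 67 of 82 were shared in the windows, or 81.7% (72.0 to 88.6), and 266 of 457 in the rest of the chromosome, or 58.2% (53.6 to 62.6). This is a difference of 23.5 points (95% Newcombe interval 12.8 to 31.8), and the share over all chromosomes was 53.5%. By window, 15 of 17 such REH peaks were shared in the first and 52 of 65 in the second, which are parts of the same 67 of 82. Of the 697 peaks of this length, 63 of 124 were shared in the windows, or 50.8% (42.1 to 59.4), and 335 of 849 in the rest, or 39.5% (36.2 to 42.8), a difference of 11.3 points (2.04 to 20.6). For 697 the interval took in 0 against the rest before the first window (9.48 points, -0.316 to 19.2) and with equal peak numbers in both lists (9.57 points, -2.48 to 21.3). Within each window alone the 697 interval also held 0, at 13.5 points in the first (-3.06 to 29.4) and 10.5 in the second (-0.108 to 21.2). Among peaks with a deposited −log10 p of at least 10, 4.40% of REH and 5.48% of 697 peaks in the windows were shared, and the differences in this length class turned to -7.91 points in REH (-13.6 to 7.34) and -3.43 in 697 (-12.1 to 13.1). This filter left 91 REH and 73 697 peaks of all lengths in the windows. It uses a column whose match to the peak positions was not settled, as described with the pileup.

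In the other length classes the intervals held 0 in both lines under the same rule for the windows combined. In the first window alone, 1 of the 21 peaks of 697 under 500 bp was shared, or 4.76%. This was 19.1 points below the rest (difference -19.1, -24.3 to -0.927). By midpoints, REH peaks of 1000 to under 2000 bp also differed, at 78.3% in the windows and 64.8% in the rest (13.4 points, 4.31 to 21.0). REH peaks under 500 bp were shared to 36.8% in the windows and 44.9% in the rest, those of 1000 to under 2000 bp to 85.2% and 77.7%, and those of at least 2000 bp to 84.6% and 90.3%. For 697 peaks the shares were 20% and 23.9%, 70.3% and 66.7%, and 82.1% and 84.7%. With the rest of the chromosome weighted to the length classes of the windows, its shared percent was 70.1% for REH, which leaves 7.64 points (2.41 to 12.9), and 51.6% for 697, which leaves 3.20 points (-1.89 to 8.29). For REH the interval of this weighted difference took in 0 against the part between the windows (4.34 points, -1.36 to 10.0), at an FDR of at most 5% (5.91 points, -0.376 to 12.2) and for peaks of at least 1000 bp (3.93 points, -3.85 to 11.7). The FDR limit uses the deposited q-values, with the doubt given with the pileup. For 697 the interval of the weighted difference left out 0 against the part between the windows (5.97 points, 0.517 to 11.4). By midpoints, where a REH peak is counted when its central base falls under a 697 peak, the share was 70.0% in the windows against 58.8% in the rest.

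**Figure D4:**
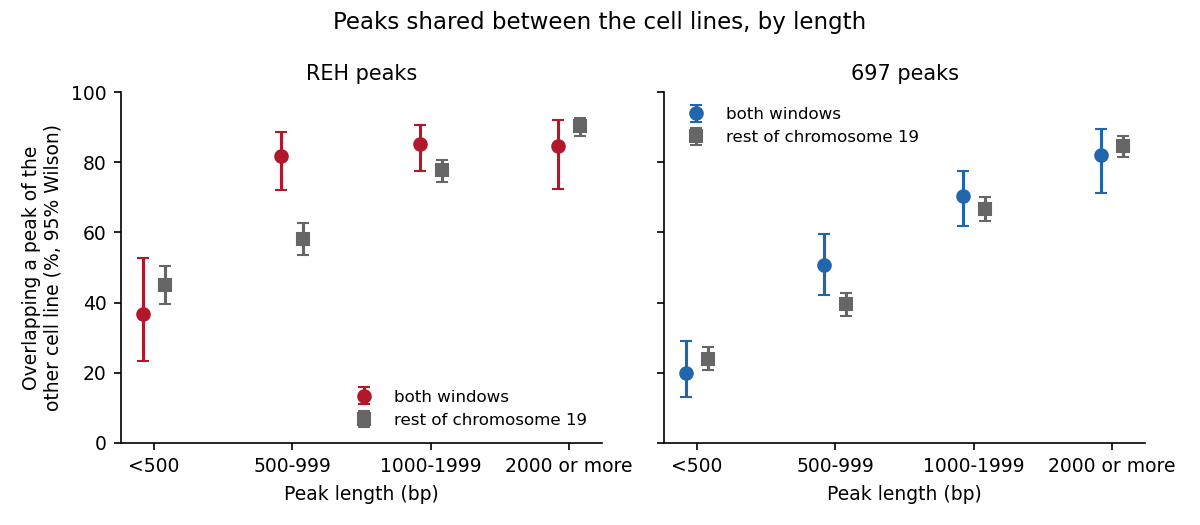
Percent of REH peaks (left) and 697 peaks (right) that overlap a peak of the other line, by peak length in bp, in both windows (circles) and in the rest of chromosome 19 (squares), with 95% Wilson intervals. The circle at 500 to under 1000 bp lies at 81.7% for REH, above the square at 58.2%, and the intervals of the other REH classes overlap.

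The most uniform part of the windows was the start of the second. Between 52 and 54.0 Mb, in its first 4 bins, 43 of 43 REH peaks overlapped a 697 peak, or 100% (91.8 to 100), while 44 of the 75 697 peaks overlapped a REH peak, or 58.7% (47.4 to 69.1). These 43 REH peaks were between 315 and 2722 bp long, with a median of 1203 bp. They form the larger part of an unbroken run of 49 neighbouring REH peaks, from 51306408 to 53978140, of which 6 lie before the window. Among the 8071 runs of shared REH peaks on all chromosomes this was the longest, and the next had 38 peaks, on chromosome 14. These bins, the run and the single bins described above were picked out after their values had been seen. Requiring an overlap of 50% of the shorter peak left 48 of the 49 peaks in a row, again the longest of all. With midpoints in place of overlaps the run was broken, and the longest run reaching into the window then had 23 peaks, from 57999084 to 58666475, with 4 longer runs elsewhere. With peaks at an FDR of at most 5% the longest run in the window had 13 peaks, with 16 longer runs elsewhere. This limit uses the deposited q-values, with the doubt about the score columns given with the pileup.

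All 17 REH peaks between 58.0 and 58.5 Mb were shared too. Only shared REH peaks were thus found in 5 of the 15 bins of the second window, with 60 REH peaks. The same held for 3 of the 8 bins of the first window that had a REH peak, with 10 REH peaks. Such bins were not counted in the rest of chromosome 19, where 70.8% of REH peaks were shared. The lowest shares of the second window were 5 of 19 REH peaks between 55.0 and 55.5 Mb, 7 of 13 between 54.0 and 54.5 Mb, and 17 of 30 between 55.5 and 56.0 Mb.

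Positions were compared where a REH and a 697 peak overlapped each other and no further peak. Requiring an overlap itself limits how far apart the midpoints of a pair can lie. The windows held 213 such pairs. Their midpoints lay a median of 164 bp apart (quartiles 62.0 to 362 bp), against 224 bp (92.0 to 413) in the 1147 pairs of the rest of chromosome 19. A median of 68.4% of the bases under either peak of a pair lay under both (quartiles 47.5 to 85.0%). The median was 61.0% in the rest and 58.6% in the 24932 pairs of all chromosomes. In the first window alone the median was 73.2% over 41 pairs, with midpoints a median of 99.5 bp apart. Midpoints within 200 bp of each other were found in 125 of the 213 pairs, or 58.7%, and in 46.5% of the pairs of the rest. The median pair lengths were 1147 bp in REH and 1258 bp in 697 in the windows, and 1398 and 1342 bp in the rest. Shorter peaks have less room for their midpoints to part, and the offsets were not adjusted for length.

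Neither line had the longer peak in most of these pairs by a wide margin. The 697 peak was the longer in 109 of them and the REH peak in 104, and the median ratio of 697 to REH length was 1.01. In 50 pairs, or 23.5%, the lengths differed at least 2-fold, against 27.6% in the rest. Across the 213 pairs, the Spearman correlation between the lines was 0.498 for length and -0.188 for the deposited pileup, as a description over peaks that share their libraries. In the rest of the chromosome it was 0.518 and -0.0295.

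**Figure D5:**
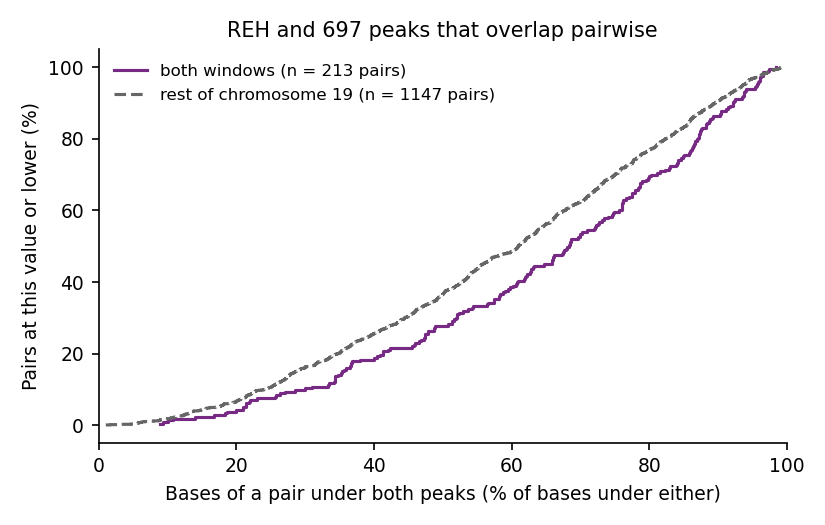
Cumulative percent of REH and 697 peak pairs (vertical axis) by the percent of their combined bases that lie under both peaks (horizontal axis), for 213 pairs in the windows (solid) and 1147 pairs in the rest of chromosome 19 (dashed). The solid line lies to the right over most of the range, with medians of 68.4% and 61.0%.

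The deposited pileup, which is the mean height of ChIP fragments over a peak, had close medians in the windows and outside. Whether the columns of pileup, fold enrichment, p-value and q-value belong to the positions in their rows was not settled. Over each whole list the Spearman correlation of −log10 p with peak length was 0.0916 in REH and 0.0653 in 697, while −log10 p of neighbouring peaks correlated at 0.574 and 0.626 and their lengths at 0.0315 and 0.0451. Positions and lengths do not depend on these columns. The median pileup was 24.0 in REH (quartiles 17.0 to 39.3) and 16.7 in 697 (10.5 to 26.8) in the windows, and 22.6 and 15.7 in the rest of chromosome 19. The median fold enrichment over the local background was 1.76 in REH and 1.47 in 697 in the windows, and 1.74 and 1.46 in the rest. Within the first window, 697 had a median pileup of 21.2, against 15.8 in the second window, and for REH the medians were 21.3 and 24.4. No peak is ranked by these columns here.

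Of the 5 longest peaks of each line in the first window, 2 had no counterpart in the other line. In 697, the peak of 6860 bp from 20382392 to 20389251 and that of 5393 bp from 20056610 to 20062002 had no REH peak over them, and the nearest REH peaks lay 33142 and 43657 bp away. The next 697 peaks in length, of 2373 bp at 20010369 to 20012741 and of 2354 bp at 20272250 to 20274603, were covered by a REH peak over 80.7% and 94.1% of their bases. The fifth, of 2200 bp at 24097244 to 24099443, was covered over 52.1%.

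In REH, the longest peak of the first window had 3566 bp, from 23980366 to 23983931, and a 697 peak of 818 bp lay inside it. The second, of 3141 bp from 24005402 to 24008542, had no 697 peak over it and none within 21646 bp. The third, of 2490 bp from 24215707, and the fourth, of 2479 bp from 23455221, were covered over 59.5% and 64.7% of their bases. The fifth, of 2401 bp from 23528407 to 23530807, again had no counterpart, with the nearest 697 peak 46254 bp away. The 5 longest REH peaks all lay in the centromeric part of the cluster, whereas 4 of the 5 longest 697 peaks lay at its other end.

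In the second window, all of the 5 longest REH peaks had a counterpart in 697. The longest, of 9819 bp from 55762351 to 55772169, contained 3 separate 697 peaks of 382, 2195 and 2414 bp, which covered 50.8% of it. The peak of 6313 bp from 54886003 to 54892315 contained a 697 peak of 4320 bp. The peaks at 54368993 to 54375038 in REH, of 6046 bp, and at 54368562 to 54374176 in 697, of 5615 bp, overlapped over 5184 bp and rank among the 5 longest of both lines. The REH peak of 6040 bp from 56185068 had only 2 short 697 peaks, of 664 and 566 bp, over it, and that of 5613 bp from 56150195 a 697 peak of 3989 bp. The longest REH peak with no 697 peak over it had 5144 bp, from 55537587 to 55542730.

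The longest 697 peak of the windows, of 10707 bp from 57386669 to 57397375, had no counterpart, and the nearest REH peak was 279582 bp away, since it lay in the stretch that was empty in REH. The other 4 of the 5 longest 697 peaks were shared. The peak of 6648 bp from 54786244 overlapped 2 REH peaks of 2148 and 1334 bp, and the peak of 6477 bp from 56619363 contained a REH peak of 4400 bp. The peak of 5716 bp from 54871571 overlapped 2 REH peaks of 1263 and 3278 bp, and the fifth is the peak at 54368562 described above. Most of the longest peaks of the second window thus had a counterpart, as long peaks mostly did elsewhere. In the rest of chromosome 19, 90.3% of the REH and 84.7% of the 697 peaks of at least 2000 bp were shared. Among the longest peaks of the second window with a counterpart, the share of bases under the other line ran from 20.4% to 92.3%.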

How the data were processed

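H3K27ac ChIP-seq had been performed on 1 library of REH and 1 of 697, each with an input library. Alignment by the authors was to hg19, with Bowtie per the methods and Bowtie2 per the submitters' processing notes. The methods name an earlier version of MACS for peak calling. Per the file headers, the authors called peaks with MACS 2.1.0.20150731 in broad mode against the input, with q-value cutoffs of 0.05 and 0.1 and 1 tag kept per position. The deposited lists give positions, the pileup signal, the fold enrichment as a linear ratio, and the p-value and q-value as −log10; they hold no tag counts per peak. Windows and comparisons were chosen with earlier results of these data known. The 5 longest peaks, the longest peak with no counterpart and the longest empty stretch were named in each window. The rest of chromosome 19 comprised all bases up to 59100000 outside the windows; the last peak of the chromosome ended at 59091920. Densities carry exact Poisson intervals, shares Wilson intervals, density ratios exact conditional binomial intervals and medians binomial intervals. Weighted shares used 4 length classes. The overlap code was checked on simulated lists. Intervals were computed with scipy 1.17.1 and statsmodels 0.14.6 under Python 3.11.15, tables with pandas 2.3.3 and numpy 2.4.6, and plots with matplotlib 3.10.9. Tag depth at a peak was not analysed here. Alternatives were stricter p-value, FDR and length limits, equal peak numbers, merging, other overlap rules and other parts of the rest.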

Additional observations from a re-analysis of the deposited data

How the results depend on the processing

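Of 115 values computed under alternatives, 77 stayed within the error of the reported value, and 38 moved beyond it. Some of the 77 could not move, because no peak crossed an edge and taking peaks by midpoint in the window kept the same peaks. Equal peak numbers likewise left the REH density, median length, coverage and density ratio as they were. Of the differences in sharing, 5 changed sign, 3 of them from a reported interval that left out 0. The causes were not tested. The ratio of peak density between windows and rest was below 1 in 18 of 18 alternatives, counting those that could not move. Its interval held 1 in 2 of the 18 alternatives. Those that take parts of the rest, leave out the richest bin or the longest empty stretch, or concern runs, and those for the differences at like length and in single length classes, were chosen after seeing the data. Against the rest before the first window the ratio was 0.437 in REH and 0.469 in 697. Against the part between the windows it was 0.880 (0.766 to 1.01) and 0.819 (0.731 to 0.917). That part includes the empty stretch at the centromere. Without the stretch the ratio to that part was 0.754 in REH (0.656 to 0.864) and 0.702 in 697 (0.626 to 0.785). Without the longest stretch with no peak, the rest had 43.6 REH and 62.3 697 peaks per Mb.

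With a deposited −log10 p of at least 10, the windows had 7.84 REH and 6.29 697 peaks per Mb, covered to 1.18% and 0.612%, with a median 697 length of 755 bp and a density ratio of 0.821 in 697 (0.630 to 1.06). The order of the lines thus turned, also over all chromosomes, with 10949 REH and 7577 697 peaks. Whether the p-value column belongs to the positions in its rows was not settled, so these values may not describe the strongest peaks. Then 4.40% of REH and 5.48% of 697 peaks were shared, the difference at like length was -3.87 points in REH and -5.15 in 697, and at 500 to under 1000 bp -7.91 and -3.43. With an FDR of at most 5%, the 697 windows had 25.8 peaks per Mb and 3.39% coverage, 61.2% of REH peaks were shared, and the longest run had 13 peaks. The doubt about the p-value column extends to this limit, which uses the deposited q-values. By midpoints, 70.0% of REH and 48.3% of 697 peaks were shared and the longest run had 23 peaks. With equal peak numbers by length, 697 had 23.4 peaks per Mb, 3.89% coverage and a median of 1273 bp, and 64.5% of REH and 68.3% of 697 peaks were shared.

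With peaks of at least 1000 bp, the densities were 14.4 per Mb in REH and 16.8 in 697, coverage 2.78% and 3.34%, and medians 1541 and 1638 bp. Then 65.3% of REH peaks were shared and the 697 difference at like length was -4.28 points, and the class of 500 to under 1000 bp could not be computed. Taking peaks by midpoint in the window could change no value, since no peak crossed an edge. No paired analysis was possible because each cell line has 1 library. Without replicates, a difference between the lines cannot be told apart from a difference between libraries.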
